A study of Mus musculus with 24 samples.

Results

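The hormone genes of the anterior and intermediate pituitary were followed in hippocampal RNA of Aged mice. The set held 8 of the 49568 gene symbols counted in each library and consisted of Gh, Prl, Pomc, Cga, Tshb, Lhb, Fshb and Pou1f1, each found as 1 row in all 24 count files. The set was selected on Gh, which differed between MSK1 KD enriched (KDEE) and MSK1 KD standard-housed (KDSH) mice in a DESeq2 test of these same counts, so the members' values in the contrast of KDEE with KDSH are described below without p-values, and a call of a member there repeats the selection. All mice were males on a C57-Bl/6J background, were 21 to 23 months old and were naive to behavioural experiments. WT standard-housed (WTSH) and WT enriched (WTEE) mice came from the wild-type line, and KDSH and KDEE mice came from a separate homozygous line in which an aspartate-to-alanine change in the endogenous gene removes the kinase activity of MSK1 in every cell. Enriched mice lived from 18 months of age in large rat cages with a wheel, toys and a ladder, whereas standard-housed mice stayed in small groups in ordinary ventilated cages. Each group had 6 libraries of 1 mouse each, of which the study left out WTSH 4, WTSH 7 and KDSH 6 for ribosomal RNA and low correlation within the group. Samples are called by their group and mouse number.

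The anterior pituitary is built of hormone cells that are named by their product. Somatotrophs make growth hormone (Gh), lactotrophs make prolactin (Prl), thyrotrophs make the beta subunit of thyroid-stimulating hormone (Tshb) and gonadotrophs make the beta subunits of luteinizing and follicle-stimulating hormone (Lhb and Fshb), each of which pairs with the common alpha subunit (Cga). Pomc, the precursor of ACTH, melanocyte-stimulating hormone and beta-endorphin, is made by corticotrophs and by the melanotrophs of the intermediate lobe, and also by neurons of the hypothalamic arcuate nucleus. Pou1f1 (Pit-1) is the transcription factor that somatotrophs, lactotrophs and thyrotrophs need, and it binds sites with the core TATNCAT in the promoters of their hormone genes. The hippocampus is not a site of pituitary hormone cells. Pomc and Tshb were nevertheless above 3 raw counts in all 24 libraries, and the cells that the members' counts came from were not tested.

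The promoters of Prl and Pou1f1 are shown because Prl is a textbook target of Pou1f1 and Pou1f1 acts on its own gene, and because these were the only members whose window held that core. Each line gives the 250 bases before the RefSeq start site of the gene (GRCm38.p6, plus strand), chr13:27057320-27057569 for Prl and chr16:65520262-65520511 for Pou1f1 start site 1, with matches to TATNCAT or its reverse complement ATGNATA in capitals.
Prl: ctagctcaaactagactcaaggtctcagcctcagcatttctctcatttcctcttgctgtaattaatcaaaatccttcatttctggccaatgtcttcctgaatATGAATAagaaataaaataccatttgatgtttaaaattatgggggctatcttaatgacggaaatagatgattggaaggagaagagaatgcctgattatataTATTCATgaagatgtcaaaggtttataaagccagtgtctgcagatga
Pou1f1: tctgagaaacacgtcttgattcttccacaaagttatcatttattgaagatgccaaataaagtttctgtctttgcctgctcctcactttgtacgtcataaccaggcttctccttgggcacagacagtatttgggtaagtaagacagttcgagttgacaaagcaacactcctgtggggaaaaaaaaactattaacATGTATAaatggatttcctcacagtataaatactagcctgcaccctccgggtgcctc
The Prl window held 2 matches, ATGAATA starting 148 bases and TATTCAT starting 47 bases before the start site, and the Pou1f1 window shown held 1, ATGTATA starting 57 bases before it. The window of Pou1f1 start site 2 (chr16:65523059-65523308), not shown, had no match. At least 1 match was present in 2603 of 32851 RefSeq windows of the same length (7.92%), and at least 2 matches were present in 1.26%. RefSeq windows were matched for 7 of the 8 members, Gh being the other one, and Pomc, Cga, Tshb, Lhb and Fshb had no match to these letters in theirs. A match is a description of the letters and does not show binding.

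Read pairs counted on genes ranged from 27410239 to 71907130 in the 21 libraries that the study kept, and were 15800187 in WTSH 4, 23318036 in WTSH 7 and 39585901 in KDSH 6. A list of 10 hippocampal neuron genes, among them Prox1 of the dentate gyrus, Wfs1 of CA1 and Grik4 of CA3, summed to between 1230 and 2020 CPM (counts scaled to a fixed total) in 22 libraries and to 1730 and 1790 CPM in KDSH 6 and KDSH 8, so the labelled tissue was read in all 24. Structural RNA genes (5 genes, among them Rn18s-rs5) summed to 296700 and 302800 CPM in WTSH 4 and WTSH 7, 57450 CPM in KDSH 6 and 480.9 CPM in KDSH 8. KDSH 6 and KDSH 8 thus differed in structural RNA, and red blood cell genes (5 genes) summed to 82.6 and 75.1 CPM in them, within the 36.1 to 383 CPM of the others. Normalized counts below are raw counts scaled by TMM over all 24 libraries to 1 common library size, and a library with at most 3 raw counts of a gene is called at the floor.

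KDSH 6 and KDSH 8 stood apart. They were the 2 highest of the 24 libraries for 7 of the 8 members (Gh, Prl, Pomc, Cga, Tshb, Fshb and Pou1f1), where 114 of the 29467 genes with at least 10 counts in total (0.387%) had these same libraries on top. KDSH 8 was in the fit that selected the set, and KDSH 6 was not. The 2 libraries were singled out by their values for these members, so the share over all genes is a description and no test. Summed over the 8 genes, the level was 424 CPM in KDSH 6 and 240 CPM in KDSH 8, against 1.91 to 27.5 CPM (median 2.75) in the other 22 libraries.

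**Figure D1:**
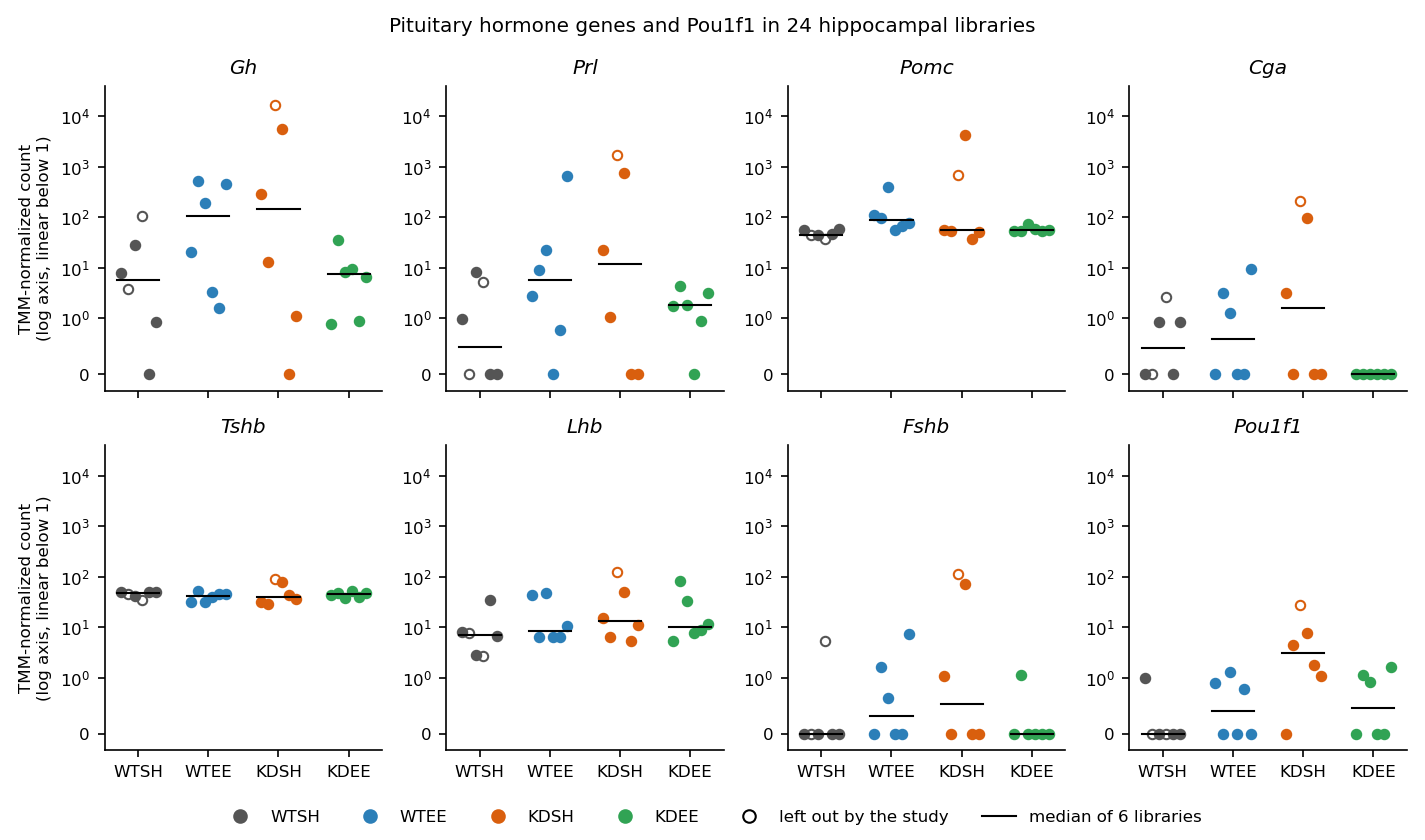
TMM-normalized counts of the 8 genes in each library (vertical axis, logarithmic above 1) by group (horizontal axis), with open circles for the libraries that the study left out and a line at the median of 6 libraries. KDSH 6 and KDSH 8 lie far above the other libraries for Gh, Cga and Fshb. Tshb has a baseline of about the same height in every group, and the median of Pomc is 86.7 in WTEE and 45.5 to 55.3 in the others.

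Gh (chr11:106300271-106301865, minus strand, GRCm38) spanned the widest range of counts among the members. The raw counts in KDSH were 267 (mouse 1), 12 (mouse 3), 13738 (mouse 6), 5897 (mouse 8), 0 (mouse 18) and 1 (mouse 24). In WTEE they were 23, 648, 306, 4, 2 and 453 in mice 10, 11, 13, 16, 17 and 21. WTSH had between 0 and 40 raw counts (median 4.5) and KDEE between 1 and 32 (median 6.5). In normalized counts, KDSH 6 and KDSH 8 reached 16540 and 5716, WTEE 11, WTEE 21, KDSH 1 and WTEE 13 followed with 520.5, 465.7, 285.3 and 193.4, and the other 18 libraries had at most 105. The 6 libraries with the highest Gh were thus 3 of the 6 KDSH and 3 of the 6 WTEE mice, and both of these groups also held mice at the floor. The ranges of normalized counts were 0 to 105 in WTSH, 1.60 to 520.5 in WTEE, 0 to 16540 in KDSH and 0.889 to 35.3 in KDEE, so all 4 groups overlapped. The medians of the 6 libraries were 5.82, 107, 149 and 7.37 in the same order.

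Prl (chr13:27057570-27065205, plus strand) was high in KDSH 6, KDSH 8 and WTEE 21. The raw counts in KDSH were 21, 1, 1444, 794, 0 and 0 in mice 1, 3, 6, 8, 18 and 24. WTEE mice 10, 11, 13, 16, 17 and 21 had 3, 11, 35, 0, 1 and 634. WTSH had 0 to 9 and KDEE 0 to 4 raw counts, and 16 of the 24 libraries were at the floor. Without mice 6 and 8, the highest KDSH library had 22.4 normalized counts, against 652 in WTEE 21.

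The proportions of the hormones were not the same from library to library. Of the counts on Prl and Gh together, Prl took 9.51% in KDSH 6 (95% exact Clopper-Pearson interval 9.05 to 9.99), 11.9% in KDSH 8 (11.1 to 12.7), 7.29% in KDSH 1 (4.57 to 10.9) and 10.3% in WTEE 13 (7.25 to 14). The share was 1.67% in WTEE 11 (0.836 to 2.97) and 58.3% in WTEE 21 (55.3 to 61.3), outside the intervals of all 4. Intervals and floors cover counting error only, since PCR copies of a molecule cannot be told apart.

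Pomc (chr12:3954951-3960642, plus strand) was above the floor in all 24 libraries. In WTSH it had 36.7 to 58.7 normalized counts (median 45.5) and in KDEE 53.3 to 73.8 (median 55.2). KDSH 8 had 4270 and KDSH 6 had 694.5 normalized counts, whereas KDSH 1, 3, 18 and 24 had 56.6, 54.0, 37.4 and 50.2 normalized counts, within the range of WTSH. WTEE 13 had 391.8 normalized counts and WTEE 10, 11, 16, 17 and 21 had 110.5, 96.4, 54.9, 67.0 and 77.1. The median of WTEE was 86.7, and of its libraries only WTEE 16 lay within the range of WTSH. In raw counts, Pomc ranged from 12 to 63 in WTSH, 35 to 80 in KDEE, 68 to 620 in WTEE and 42 to 4405 in KDSH. The order of KDSH 6 and KDSH 8 was the opposite of that for Gh. Pomc made up 42.8% of the counts on Pomc and Gh in KDSH 8 (41.8 to 43.7, same interval) and 4.03% in KDSH 6 (3.71 to 4.37).

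**Figure D2:**
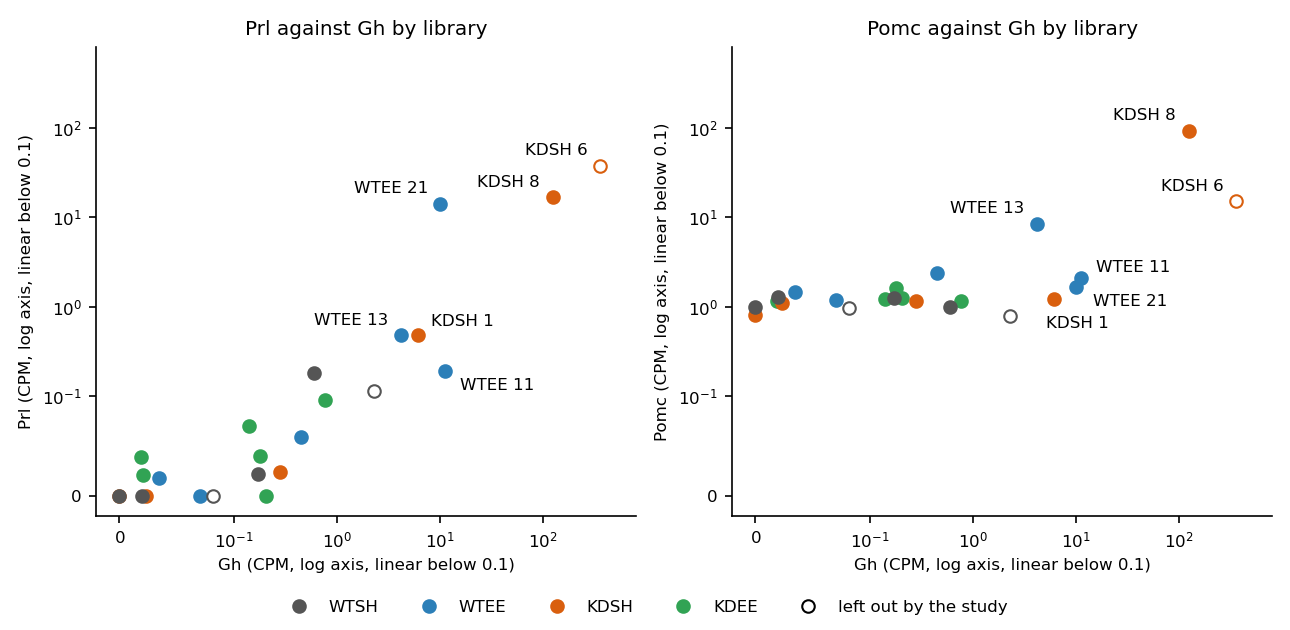
CPM of Prl (left) and Pomc (right) against CPM of Gh in each of the 24 libraries, both axes logarithmic above 0.1, with open circles for left-out libraries. Prl and Gh are high together in KDSH 6 and KDSH 8, WTEE 21 has more Prl for its Gh than the others, and Pomc stays near 1 CPM in most libraries while KDSH 8, KDSH 6 and WTEE 13 lie above.

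The glycoprotein hormone genes divided into those that were close to absent outside KDSH 6 and KDSH 8 and those with a background. Cga (chr4:34893779-34907370, plus strand) had 177 raw counts in KDSH 6 and 98 in KDSH 8, 9 in WTEE 21, 4 in WTEE 11 and at most 3 in the other 20 libraries, and was at 0 in all 6 KDEE libraries. In the annotation, 305 of its 954 exon bases are shared with Platr9 on the other strand. The counting ignored strand, so a read over the shared bases cannot be given to either gene by its strand. HTSeq keeps reads that it finds ambiguous out of the gene counts. Fshb (chr2:107056140-107059656, minus strand), which has no annotated overlap, had 94 and 74 raw counts in KDSH 6 and KDSH 8, 7 in WTEE 21 and at most 2 elsewhere. Fshb took 34.7% of the counts on Fshb and Cga in KDSH 6 (29.0 to 40.7) and 43.0% in KDSH 8 (35.5 to 50.8), intervals that overlap.

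Tshb (chr3:102775465-102782718, minus strand) had a baseline in every library. It had 73 and 80 raw counts in KDSH 6 and KDSH 8 and 12 to 66 in the other 22 libraries, and 87.9 and 77.6 normalized counts against 29.1 to 53.0. Mean normalized counts over the kept libraries were 47.1 ± 4.23 in WTSH (SD, n = 4), 41.1 ± 8.57 in WTEE (n = 6), 43.5 ± 19.9 in KDSH (n = 5) and 44.3 ± 5.54 in KDEE (n = 6). The means differed by less than the SD of KDSH, and the values of all groups overlapped. The gene lies across Tspan2 on the other strand without sharing an annotated exon base with it.

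Lhb (chr7:45420820-45421897, plus strand) was the member with another order. It had 125.2 normalized counts in KDSH 6, 80.5 in KDEE 12, 50.4 in KDSH 8, 48.0 in WTEE 13, 44.0 in WTEE 10, 34.7 in WTSH 19 and 33.2 in KDEE 14. By group, the mean over the kept libraries was 12.96 ± 14.6 in WTSH, 20.3 ± 20.1 in WTEE, 17.6 ± 18.7 in KDSH and 24.4 ± 29.3 normalized counts in KDEE (SD), with the groups overlapping. The other 17 libraries had 0.0569 to 0.325 CPM of Lhb, below the 0.721 to 1.75 CPM of KDEE 12, WTEE 13, WTEE 10, WTSH 19 and KDEE 14. These same 5 libraries were the highest for a list of 14 choroid plexus genes, which summed to between 3745 and 13510 CPM there and to at most 385.6 CPM in the others. Ttr, the transthyretin gene that defines choroid plexus epithelium, had 2440 to 8850 CPM in the 5 libraries, 4.69 to 85.1 CPM in the 17 and 6.36 and 29.0 CPM in KDSH 8 and KDSH 6. Lhb was thus high in libraries with much choroid plexus RNA and in KDSH 6 and KDSH 8, where the choroid plexus list summed to 281.7 and 237.9 CPM, and the part of choroid plexus RNA in the Lhb counts was not tested. Lhb shares 138 of its 678 exon bases with Ruvbl2 on the other strand, which had 24.1 to 33.3 CPM over all 24 libraries.

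**Figure D3:**
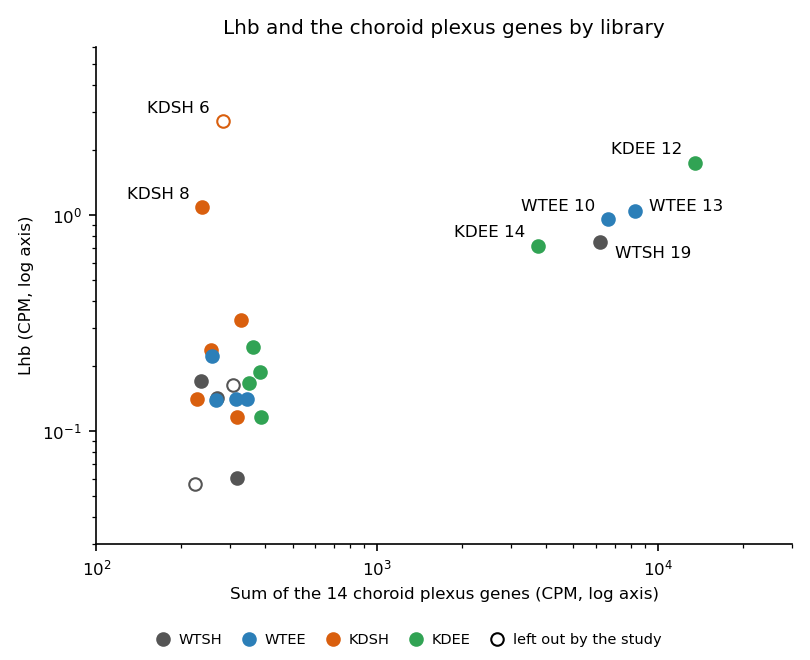
CPM of Lhb (vertical) against the summed CPM of 14 choroid plexus genes (horizontal) in the 24 libraries, both on logarithmic axes, with open circles for left-out libraries. A set of 5 libraries lies at the upper right, and KDSH 6 and KDSH 8 lie at the upper left with Lhb at 2.72 and 1.09 CPM.

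Pou1f1 (chr16:65520511-65535005, plus strand) was at the edge of detection. It had 23 raw counts in KDSH 6, 8 in KDSH 8, 4 in KDSH 3 and at most 2 in the other 21 libraries, and was at 0 in 12 of them. Of its 3891 exon bases, 136 are shared with Gm49631 on the other strand. Per kilobase of exon, the level in KDSH 6 was 417 CPM for Gh, 26.8 for Prl, 11.4 for Pomc, 4.85 for Cga, 4.01 for Lhb, 1.54 for Fshb, 0.419 for Tshb and 0.154 for Pou1f1. In KDSH 8 the order was the same except for Prl and Pomc, with 144 CPM per kilobase for Gh, 70.3 for Pomc, 11.9 for Prl, 2.16 for Cga, 1.61 for Lhb, 0.973 for Fshb, 0.37 for Tshb and 0.0433 for Pou1f1. The level in KDSH 6 was 1.13 to 3.57 times that in KDSH 8 for 7 of the members and 0.163 times for Pomc.

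Genes that regulate the pituitary were read from lists. Of 12 transcription factors, 11 had at least 10 counts in total and 4 had KDSH 6 and KDSH 8 as their 2 highest libraries, namely Lhx3, Tbx19, Nr5a1 and Six6. Lhx3, a LIM homeobox factor of the developing pituitary, had 29 and 49 raw counts in KDSH 6 and KDSH 8 (0.758 and 1.03 CPM, against 0.163 to 0.586 CPM elsewhere). Tbx19 (Tpit), the factor of Pomc cells, had 8 raw counts in KDSH 6 and 21 in KDSH 8, and Six6 had 20 and 11. Both had at most 7 counts in any other library. Pax7, which marks melanotrophs of the intermediate lobe, had 22 raw counts in KDSH 8, 0 in KDSH 6 and at most 1 in the other 22 libraries. KDSH 8, with the highest Pomc, also had the highest Tbx19 and Pax7, which is 1 library with 21 and 22 raw counts. The receptors Crhr1 and Avpr1b were within the range of the other 22 libraries in KDSH 8, and a link to Pomc was not tested. Pitx1 had 26 and 13 raw counts against at most 8, but by CPM 1 of the other libraries (0.326) lay above KDSH 8 (0.274). Hesx1 had 1 count in all, and Lhx4, Neurod4, Isl1, Gata2 and Foxl2 were within the range of the other 22 libraries in both.

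Of 10 receptors through which the hypothalamus acts on the pituitary, Ghrhr and Gnrhr had KDSH 6 and KDSH 8 as the 2 highest libraries. Ghrhr, the receptor for growth hormone-releasing hormone on somatotrophs, had 40 and 12 raw counts and at most 7 elsewhere, in the order of Gh. Gnrhr, the receptor of gonadotrophs, had 3 and 4 raw counts and at most 2 elsewhere, which is at the floor or 1 count above it. The other 8 did not have these libraries on top. Among them were Crhr1 (16.1 and 15.8 CPM against 11 to 18.7), Drd2 (5.54 and 4.19 CPM against 2.96 to 6.23) and Avpr1b (0.653 and 0.463 CPM against 0.19 to 0.719).

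**Figure D4:**
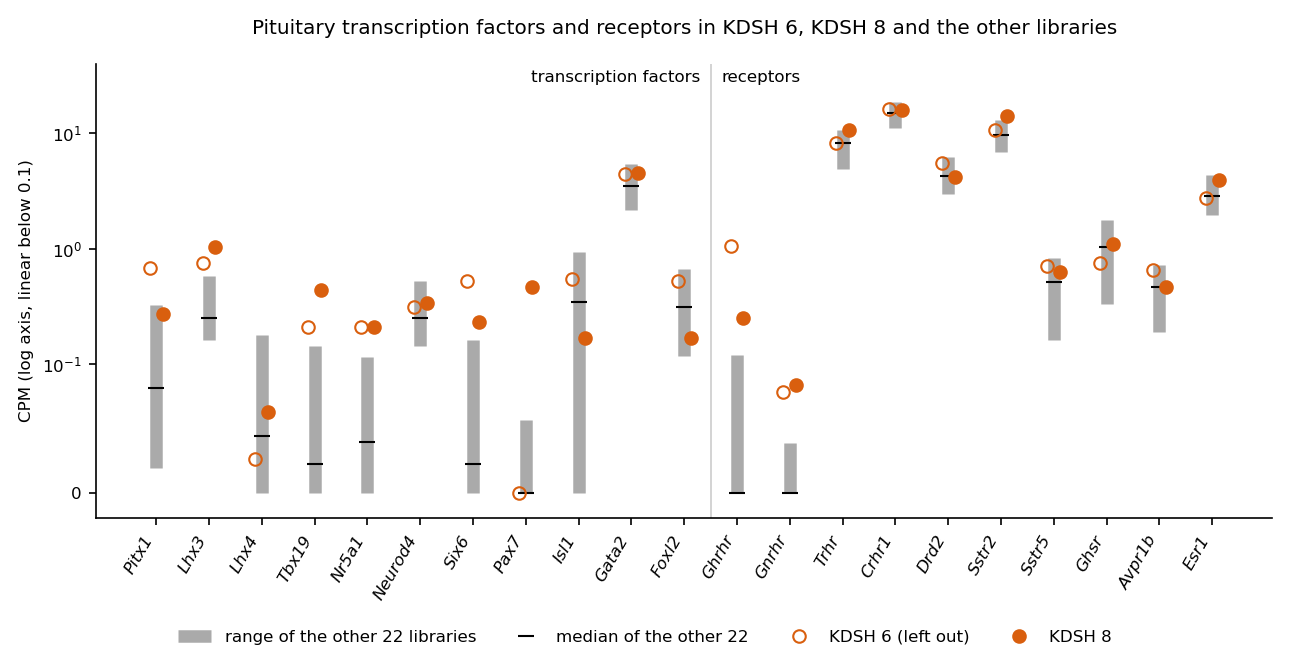
CPM (vertical axis, logarithmic above 0.1) of pituitary transcription factors and receptors with at least 10 counts in total, with circles for KDSH 6 (open) and KDSH 8 (filled), grey bars for the range of the other 22 libraries and a dash for their median. Lhx3, Tbx19, Nr5a1, Six6, Ghrhr and Gnrhr lie above the grey bar in both libraries, and Pax7 lies above it only in KDSH 8.

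Genes that hormone cells share with neurons, or that respond to the hormones, did not have KDSH 6 and KDSH 8 as their 2 highest libraries. None of 10 hormone processing and secretory granule genes had both on top, and their sum was 5360 and 4710 CPM against 4280 to 6420 CPM in the other 22. The 8 members summed to only 424 and 240 CPM, so a part of that size could not be read in the granule sum. Pcsk1, which cleaves the Pomc precursor, was highest in KDSH 8 at 28.9 CPM, with 18.3 in KDSH 6 and 9.13 to 28.7 in the others. None of 9 growth hormone and prolactin signalling targets had them on top, and Igf1 (5.54 and 6.23 CPM against 4.69 to 7.91) and Socs2 (14.4 and 18.5 against 13 to 20.1) lay within the range. The same was found for 10 receptors for pituitary hormones, of which Prlr was highest in the 5 libraries rich in choroid plexus genes (21.0 to 85.7 CPM, against 3.84 to 5.98 in the other 17). The hypothalamic peptide genes, 13 in number and including Agrp, Npy and Cartpt of the arcuate nucleus, summed to 281 and 234 CPM, within the 185 to 438 CPM of the others. Sst alone had 233 and 192 CPM of these sums, so they mostly describe Sst. Agrp had 0.653 and 0.61 CPM, against 0.312 to 1.18 in the others, and Cartpt 2.43 and 2.34 against 0.895 to 3.75.

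The comparisons between groups asked whether enrichment or the kinase-dead allele changed these genes. Of the 8 members, 5 (Gh, Prl, Pomc, Lhb and Tshb) passed the default edgeR filter on low counts over the 21 kept libraries, and Cga, Fshb and Pou1f1 did not and were not tested. A gene passes this filter where some libraries are high, so these 5 stand only for themselves. A call in the quasi-likelihood test of edgeR, run over 20187 genes, took a change of more than 0.38 on the log2 scale together with a Benjamini-Hochberg adjusted p below 0.05. DESeq2, run as an alternative, gave no p-value for Prl, Pomc, Cga and Fshb in any comparison of the 21 libraries, so these 4 members could not be called by it. In bulk RNA, fewer cells of a type and less RNA per cell cannot be told apart.

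WTEE was compared with WTSH for the effect of enrichment in WT mice. The mean normalized count of Gh was 201 ± 238 (SD, n = 6) for WTEE and 9.15 ± 12.9 (n = 4) for WTSH, with 3 of the 6 WTEE mice above every WTSH mouse of the 6 and the others within their range. The log2 fold change of Gh was 4.45 (standard error 1.99, adjusted p = 0.651 from edgeR), that of Prl 5.53 (2.29, adjusted p = 0.651) and that of Pomc 1.37 (1.10, adjusted p = 0.665). Lhb (0.63, standard error 0.86, adjusted p = 0.781) and Tshb (-0.20, 0.22, adjusted p = 0.727) had smaller estimates. No member was called, and edgeR called 0 of 20187 genes (0.0%), with 1322 (6.55%) at an unadjusted p under 0.05, while DESeq2 called 2 of 37779 (0.00529%), which were not among the 4 members it gave a value for (Gh, Tshb, Lhb and Pou1f1). Without WTEE 13, the estimate of Pomc was 0.65. The 5 red blood cell genes all had estimates above 0 here (median log2 fold change 1.52, each with an unadjusted p under 0.05, 0 called), with sums of 54.7 to 383 CPM in WTEE and 37.4 to 70.6 CPM in WTSH, and their part in these values was not tested. Prl no longer passed the filter without WTEE 21, which had 652 normalized counts where the next WTEE library had 22.1.

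KDSH was compared with WTSH for the effect of the allele in standard housing. This comparison shares the KDSH libraries with the contrast that selected the set, so the members' p-values are not independent of the selection. Gh had 1203 ± 2526 normalized counts in the 5 kept KDSH libraries, 4 of which lay between 0 and 285. The log2 fold changes were 7.05 for Gh (standard error 2.10), 6.05 for Prl (2.31), 4.12 for Pomc (1.21), 0.42 for Lhb (0.92) and -0.11 for Tshb (0.23), each with an adjusted p of 1.0 from edgeR. Without KDSH 8, the estimate of Gh was 3.03, that of Pomc -0.06 and that of Lhb -0.49, and Prl no longer passed the filter. All 14 choroid plexus genes had estimates below 0 in this comparison (median log2 fold change -2.93, 5 of them with an unadjusted p under 0.05, 0 called), and their part in the estimates was not tested. edgeR called 0 genes (0.0%), with 202 (1.0%) at an unadjusted p under 0.05, and DESeq2 called 0 of 37779 (0.0%).

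WTEE was compared with KDEE for the effect of the allele in enrichment. The KDEE libraries are also those of the contrast that selected the set, so the members' p-values here are not independent of the selection. The KDEE libraries were low throughout, with Gh at 10.2 ± 12.8 and Prl at 2.04 ± 1.58 normalized counts (SD, n = 6). The log2 fold changes were 4.32 for Gh (standard error 1.69, adjusted p = 0.724), 5.79 for Prl (2.03, adjusted p = 0.538), 1.20 for Pomc (0.95, adjusted p = 0.957), -0.24 for Lhb (0.73, adjusted p = 0.974) and -0.11 for Tshb (0.20, adjusted p = 0.963) in edgeR. edgeR called 0 genes (0.0%), with 1007 (4.99%) at an unadjusted p under 0.05. DESeq2 called 118 of 37779 genes (0.312%), which did not include the 4 members with a value. Without WTEE 13, the estimate of Pomc was 0.48. WTEE 10 and WTEE 13 are among the libraries rich in choroid plexus genes, as are KDEE 12 and KDEE 14, and these 4 libraries held the highest Lhb of both groups.

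KDEE was compared with KDSH for the effect of enrichment in MSK1 KD mice, and this contrast selected the set. The log2 fold changes were -6.92 for Gh (standard error 1.75), -6.31 for Prl (2.04), -3.95 for Pomc (1.02), 0.45 for Lhb (0.80) and 0.01 for Tshb (0.21). DESeq2 called 14 of 37779 genes (0.0371%), Gh among them, and of the other members it gave an adjusted p for Tshb alone, whereas edgeR called 0 (0.0%) with 2345 (11.6%) at an unadjusted p under 0.05. Without KDSH 8, the estimates were -2.89 for Gh, 0.23 for Pomc and 1.37 for Lhb, and without KDEE 12 that of Lhb was -0.42. Beside Lhb, all 14 choroid plexus genes had an estimate above 0 in this comparison, with a median log2 fold change of 3.85, as had all 5 red blood cell genes (median 1.40). Each of these genes had an unadjusted p under 0.05, edgeR called 0 of them, and their part in the members' values was not tested. Cga was at 0 in all 6 KDEE libraries, as it was in KDSH 3, 18 and 24.

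The wider lists could hold no calls in these comparisons, since edgeR called 0 of 20187 genes (0.0%) in each of them. edgeR tested 5 of the 12 transcription factors, 8 of the 10 pituitary receptors, 10 of the 10 processing and granule genes, 7 of the 10 hormone receptors, 8 of the 9 signalling targets and 8 of the 13 hypothalamic peptide genes, and called 0 of them in any comparison, in either direction. Their median log2 fold changes lay between -0.18 and 0.28 for the transcription factors and between -0.11 and 0.08 for the pituitary receptors, where the median over all genes tested was at most 0.01 in size. The processing and granule genes had medians of -0.04 to 0.07, and the signalling targets, such as Igf1 and Socs2, of -0.09 to 0.04. The hypothalamic peptide genes had medians of -0.04 to 0.26, and the hormone receptors of -0.42 (WTEE minus KDEE, 6 of 7 lower) to 0.22 (KDSH minus WTSH, 5 of 7 higher). Of the transcription factors and receptors that KDSH 6 and KDSH 8 had on top, Lhx3 was the one abundant enough to be tested.

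**Figure D5:**
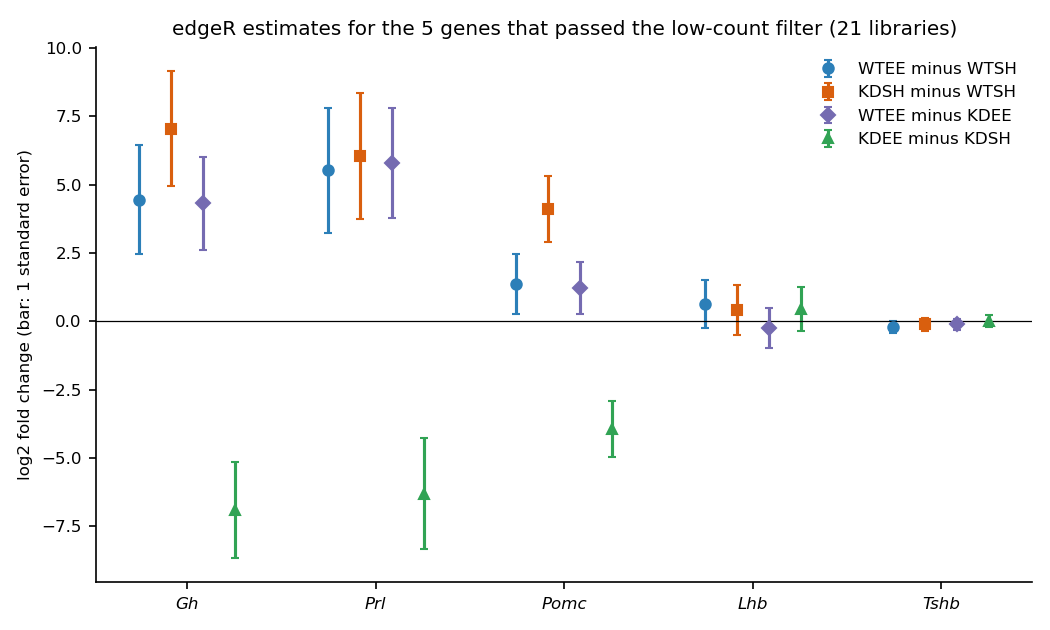
Log2 fold changes (vertical axis) of the 5 genes that passed the low-count filter, from edgeR over 21 libraries, with bars of 1 standard error, for the 4 comparisons. Gh, Prl and Pomc have wide bars and lie above 0 in 3 comparisons and below it in KDEE minus KDSH, and Tshb stays between -0.20 and 0.01.

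The comparisons share libraries, so their estimates are not independent. The difference of both housing effects, WTEE minus WTSH less KDEE minus KDSH, uses the contrast that selected the set and was 11.36 for Gh, 11.84 for Prl, 5.32 for Pomc, 0.19 for Lhb and -0.21 for Tshb on the log2 scale. Without KDSH 8, it was 7.34 for Gh and 1.14 for Pomc. With the left-out libraries returned, the KDSH group held the highest level of every member, and the medians of its 6 libraries were 149 normalized counts for Gh, 55.3 for Pomc and 1.60 for Cga against means of 3758, 860 and 51.9.

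The genes most like Gh were sought among 19813 genes by Pearson's r of log2 CPM over the 24 libraries, which also differ in depth and structural RNA. The 5 closest outside the set were Psmd11 (r = 0.76, Spearman's rho = 0.70), Hmha1 (0.72 and 0.78), Fam134c (0.71 and 0.67), Epcam (0.71 and 0.47) and Ccm2l (0.69 and 0.75). Without KDSH 6 and KDSH 8, the values of r fell to between 0.37 and 0.61. Epcam, an adhesion molecule of epithelia, had 1.44 and 1.20 CPM in KDSH 6 and KDSH 8 against 0.175 to 0.695 CPM in the others, and Psmd11, a subunit of the proteasome, 55.2 and 54.5 against 42.6 to 53.6. Among the members that passed the filter over 24 libraries, r with Gh was 0.75 for Pomc, 0.49 for Lhb and 0.45 for Tshb, and 0.46, 0.14 and -0.22 without both libraries. Much of the likeness thus rested on KDSH 6 and KDSH 8.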

How the data were processed

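Hippocampal poly(A) RNA of 24 Aged mice was sequenced as 150-base read pairs. The authors used Skewer for trimming, STAR 2.5 for alignment to GRCm38 and HTSeq 0.6.1p1 for counting unique pairs per gene irrespective of strand, and the deposited values are these raw counts for 49568 gene symbols. The 5 summary rows of HTSeq were kept out of library sizes. Groups came from sample titles. The members and all gene lists were chosen with earlier results of these data known, and some list genes are not reported here.

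Counts were tested with edgeR 4.0.16 in R 4.3.3 (TMM, default low-count filter, quasi-likelihood test, the 4 groups in 1 model, 21 libraries), with adjustment over all genes tested, and with the Wald test of DESeq2 1.42.0 as an alternative. The scripts were tested on simulated counts. CPM used TMM over 24 libraries, with a prior count of 2 on the log2 scale. Shares with at least 20 counts were given exact 95% intervals in scipy 1.17.1. Positions came from GENCODE M21, an annotation of GRCm38 other than that of the counting, and promoter windows from RefSeq. Named genes are the members, list genes and the 5 genes closest to Gh. Figures were drawn with matplotlib 3.10.9.

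Alternatives were DESeq2-style size factors, no filter, at least 10 counts in every library, all 24 libraries, only the groups compared, a robust fit and leaving out each of the 21 libraries. DESeq2 over all 24 libraries was added after seeing the data.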

Additional observations from a re-analysis of the deposited data

Results flagged for a closer look

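Over the kept libraries, 25 sets of values were tested for 1 library far from the others of its group. A set was a member in a group, with more than 3 raw counts in some library. Such a library was found in 16 sets, where chance gives about 1 in 20 for independent sets of normally distributed values. These sets are not independent, since several members are high in the same libraries and Gh in KDSH selected the genes. The normalized counts were also skewed and in part near the floor, so the share of 1 in 20 does not apply and the count is a description. KDSH 8 was the highest library of KDSH for Gh (5720 normalized counts, next 285), Prl (770, next 22.4), Pomc (4270, next 56.6), Cga (95, next 3.21), Lhb (50.4, next 15) and Fshb (71.7, next 1.07). In WTEE, mouse 21 stood apart for Prl (652, next 22.1), Cga (9.25, next 3.21) and Fshb (7.2, next 1.61), and mouse 13 for Pomc (392, next 111). In KDEE, mouse 12 stood apart for Gh (35.3, next 9.54) and Lhb (80.5, next 33.2), and mouse 14 for Pomc (73.8, next 58.2). In WTSH, mouse 5 was high for Prl (8.34, next 0.985) and low for Tshb (40.8, next 49.0), and mouse 19 was high for Lhb (34.7, next 7.88).

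The libraries that the study left out were compared with the 4 kept WTSH libraries. All 8 members were higher in KDSH 6 than in every one of them, with 16500 normalized counts of Gh, 1740 of Prl, 694 of Pomc, 213 of Cga, 87.9 of Tshb, 125 of Lhb, 113 of Fshb and 27.7 of Pou1f1. WTSH 7 had 105 normalized counts of Gh (40 raw counts), against at most 27.8.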

How the results depend on the processing

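The members called stayed at 0 in all 4 comparisons under every alternative run in edgeR, the 21 fits that leave out 1 library included (0 to 0 members). Over all genes tested, 16595 to 37787 by setting, these fits called at most 1 gene in a comparison. A count of 0 members was thus near fixed and does not describe the members. With the Wald test of DESeq2, 1 member was called in KDEE against KDSH, where 14 of 37779 genes were called. With DESeq2 over all 24 libraries, 3 members (Gh, Prl and Pomc) were called there, where 22 of 38172 genes were called. These calls repeat the selection of the set, and Prl and Pomc had no p-value from DESeq2 over 21 libraries. DESeq2 over 24 libraries also called 1 of 38172 genes in KDSH against WTSH. This was Pomc (log2 fold change 4.16, adjusted p = 0.0277, where all alternatives ranged from 0.0277 to 1.0). That comparison shares KDSH libraries with the contrast that selected the set, so the call is not independent of the selection. KDSH 6 and KDSH 8 had 694.5 and 4270 normalized counts of Pomc, and KDSH 1, 3, 18 and 24 lay within the WTSH range. DESeq2 over 24 libraries moved the difference of the housing effects of Lhb to 1.47. With all 24 libraries, edgeR gave an estimate of opposite sign for Tshb in KDSH against WTSH (0.17, and 0.17 in DESeq2), Lhb in KDEE against KDSH (-0.52, and -0.54), Tshb there (-0.20, and -0.20) and Tshb in the difference of the housing effects (0.06, and 0.06), none of them called. Leaving out 1 library moved the difference of the housing effects between 7.34 and 13.01 for Gh, 11.4 and 14.35 for Prl, and 1.14 and 5.63 for Pomc, turned its sign for Lhb (-0.73 to 1.37), and turned the sign in KDSH against WTSH of Pomc (-0.06 to 4.43), Lhb (-0.49 to 1.61) and Tshb (-0.42 to 0.00), in WTEE against KDEE of Lhb (-0.73 to 0.62) and in KDEE against KDSH of Pomc (-4.26 to 0.23), Lhb (-0.42 to 1.37) and Tshb (-0.10 to 0.33). The low ends of Gh and Pomc in the difference came without KDSH 8, the high ends of Gh and Prl without WTSH 5, and the cause of the other shifts was not tested. Some values could not be given because the gene no longer passed the filter: Prl without KDSH 1, KDSH 8, WTEE 13 or WTEE 21, over 24 libraries in edgeR and with only the groups compared, Gh in KDEE against KDSH with these groups alone, and Gh, Prl and Lhb with at least 10 counts in every library. By raw counts in place of normalized ones, 6 members in place of 7 had KDSH 6 and KDSH 8 as the highest libraries. No paired analysis was possible because no mouse number occurs in more than 1 group. Members with at most 3 counts in a library give no order there.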
